A study of Homo sapiens with 15 samples.

Results

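Membrane proteins of the lysosome encoded by 9 genes (LAMP1, LAMP2, SCARB2, CD63, CD164, LAPTM4A, LAPTM4B, TMEM192 and CTNS) were followed through RNA-seq data of the human pancreatic carcinoma cell line MIA PaCa-2. They were chosen by name from the 60107 genes listed in each library. CD63 is the only tetraspanin in the strict sense among them.

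RNA had been collected from 15 samples in 5 groups of 3, which shared a 24 h treatment. The groups were a vehicle group (labelled Ctrl) and cells given Lys05, BAQ12, BAQ13 or BAQ12O at 5 µM each. Lys05 is an inhibitor of lysosomal degradation and autophagy, BAQ12 and BAQ13 are compounds that assemble into nanoparticles (BAQ12 NPs and BAQ13 NPs), and BAQ12O, written 12O in the design text of the series, is known here by its label only. The comparisons ask how transcripts for the lysosome's own membrane respond to these 4 agents.

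The lysosomal membrane is lined on its inner face by a dense coat of glycans carried by a few heavily glycosylated proteins, which shields it from the hydrolases and acid inside. The same membrane holds transporters that export the products of digestion, and receptors and scaffolds that move with it from late endosomes. Many lysosomal genes can be induced together by transcription factors of the TFEB family, which bind short E-box motifs near gene starts.

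The deposited value is a normalised read count, the reads on a gene divided by 1 size factor for the library. Each library held between 1586566 and 2500551 reads on genes (median 2230594), and 3 reads, the floor used here for detection, correspond to a normalised count of 2.49 to 4.14. Such a floor covers counting error only. Nothing in the labels states that the 3 samples of a group were separate cultures, so the p-values measure the spread between these samples, which may be technical. As bulk libraries, they cannot tell fewer cells that use a gene from less RNA of that gene per cell. Keratin genes that mark epithelial cells were well detected (KRT8 at 175 to 349.5, KRT18 at 634 to 969.7 and KRT19 at 429 to 572), whereas EPCAM and KRT7 never exceeded 1 read and CDH1 had 0 to 5 reads. Among the mesenchymal markers, VIM stood at 9198 to 10781 and ZEB1 at 107 to 185, whereas CDH2 never exceeded 1 read. Of the markers of other cell types, CDH5 (23.9 to 75.3) and COL1A2 (148 to 252) were above the floor in every library, PTPRC had 0 to 6 reads, ITGAM, VWF and COL1A1 had at most 2, and CD3E, PECAM1 and DCN had 0 throughout.

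Replicate 3 of BAQ12 stood apart from the other libraries before any gene was singled out. Its root mean square distance from its own group was 0.45 on the log2 scale over all genes tested, against 0.21 to 0.30 for the other 14 libraries. Its reads differed from those of the other BAQ12 libraries by a chi-square per degree of freedom of 10.7 and 12.6, where the other pairs within groups gave 1.05 to 5.96. It also had the second lowest number of reads (1754599) and the highest share of reads on mitochondrial genes (20.6%). BAQ12O replicate 3 had fewer reads (1586566) and nearly the same share (20.4%), at a distance of 0.25 from its own group. Values that moved or changed their call without it are given both ways for the comparisons described here. BAQ13 replicate 1 gave the 5.96 with BAQ13 replicate 3.

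LAMP1 and LAMP2 encode the major glycoproteins of the lysosomal coat. LAMP2, on chromosome X (ENSG00000005893, 120427827 to 120469365, minus strand, GRCh38), also yields the receptor of chaperone-mediated autophagy. Its normalised counts were 266, 278 and 267 in the vehicle group and 381, 409 and 397 with BAQ13 NPs. The 3 BAQ13 libraries lay above all the other 12 libraries. With Lys05 the counts were 309.9, 319.7 and 291, with BAQ12 NPs 330.2, 332 and 312, and with BAQ12O 319, 301 and 339. All 12 treated libraries thus lay above all 3 vehicle libraries, and BAQ13 NPs were the only treatment whose difference from vehicle passed the test. The log2 differences of the others were 0.18 with Lys05 (95% interval 0.01 to 0.35), 0.26 with BAQ12 NPs (0.09 to 0.43) and 0.24 with BAQ12O (0.07 to 0.41). Their adjusted p-values by limma were 0.95, 0.179 and 0.181. The means were 270.3 ± 6.76 in the vehicle group and 396 ± 14.3 with BAQ13 NPs (SD, n = 3), and the log2 fold change with BAQ13 NPs was 0.55 (standard error 0.08, 95% interval 0.38 to 0.72, adjusted p = 0.00027 by limma), a fold of 1.46.

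LAMP1 lies on chromosome 13 (ENSG00000185896, 113297241 to 113323672, plus strand, GRCh38). It read 187, 164 and 163 in the vehicle group, and 203, 199 and 212 with Lys05. With BAQ12 NPs it read 222, 184 and 206, with BAQ13 NPs 185, 243 and 237, and with BAQ12O 225, 184 and 192. BAQ13 replicate 1 sat with the vehicle libraries while the other two BAQ13 libraries were the highest of all 15. The group means of the 4 treatments, between 200.3 with BAQ12O and 222 with BAQ13 NPs, were all above the vehicle mean of 171 ± 13.3 (SD, n = 3). None of the 4 differences passed the test. For BAQ13 NPs the log2 fold change was 0.36 (standard error 0.12, 95% interval 0.11 to 0.61, adjusted p = 0.088 by limma). Without BAQ12 replicate 3, which belongs to neither group but enters the shared estimate of the spread, the adjusted p was 0.026 at the same fold change.

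**Figure D1:**
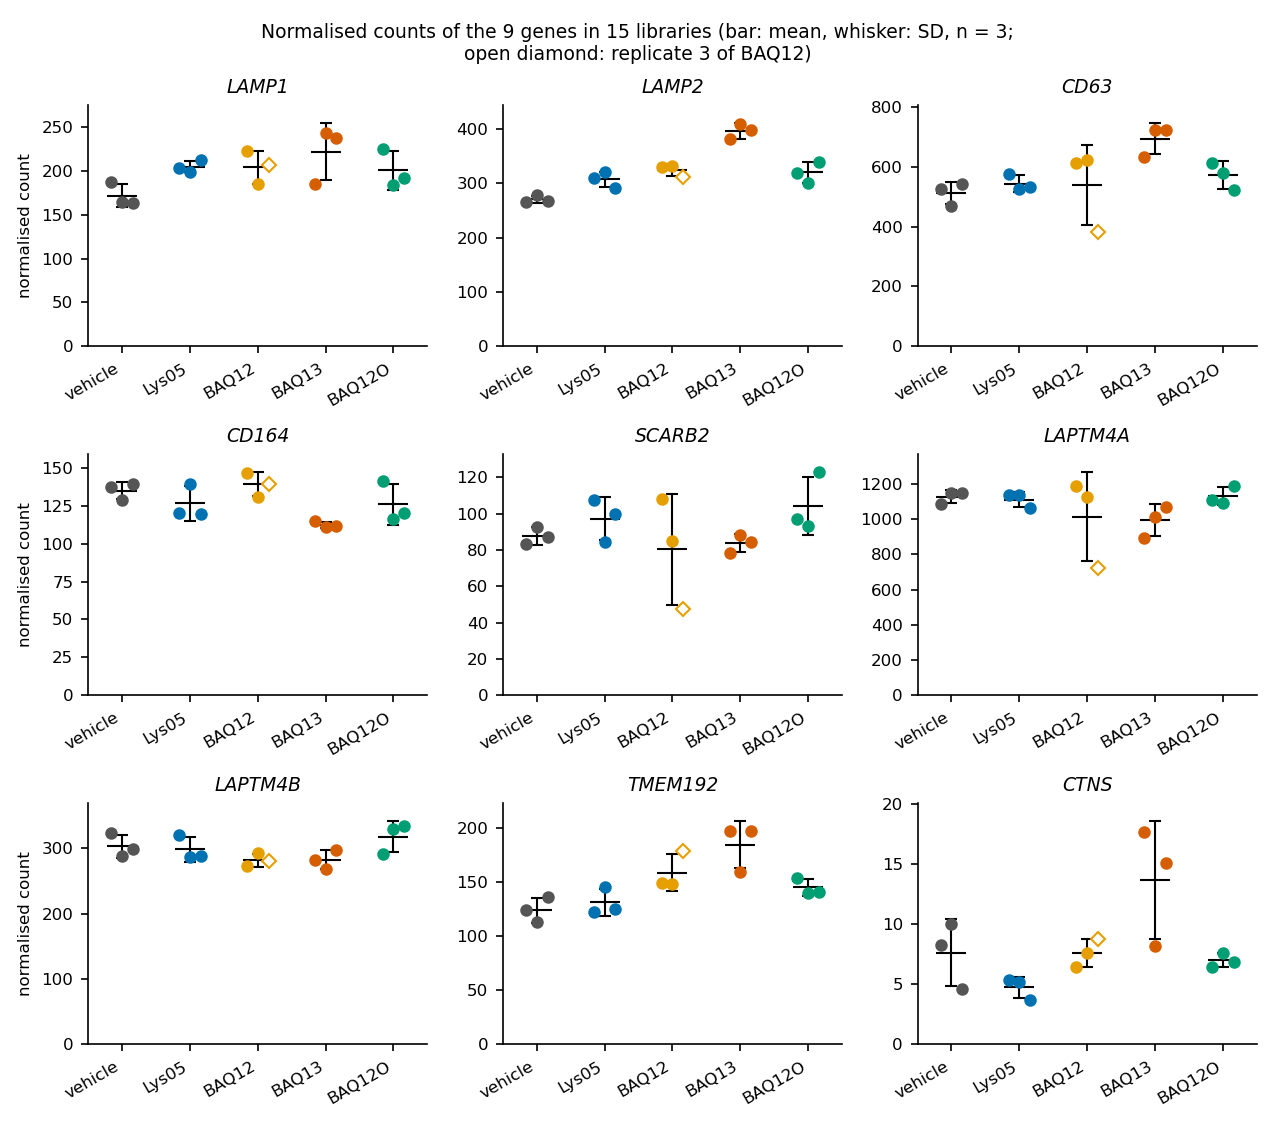
Normalised counts of the 9 genes (vertical axes, from 0) in the 5 groups, with 1 point per library, a bar for the mean and whiskers for the SD (n = 3), and replicate 3 of BAQ12 as an open diamond. LAMP2 with BAQ13 NPs lies between 381 and 409, above every other library, and the open diamond is the lowest point of CD63, SCARB2 and LAPTM4A.

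The promoters of LAMP1, CD164 and TMEM192 are shown because these 3 genes differ in the E-box CACGTG, the core of the motif that TFEB binds, and because LAMP1 carries it most often. The windows come from RefSeq (GRCh38.p14) and run from 250 bases before to 50 bases after a gene start, written 5′ to 3′ on the strand of the gene with CACGTG in capitals. Windows were at hand for 7 of the 9 genes (16 windows, as CD63, CD164 and CTNS have several), and LAMP2 and LAPTM4B were without one. They cover chr13:113296989-113297288 (plus strand) for LAMP1, chr6:109382418-109382717 (minus strand) for CD164 and chr4:165112811-165113110 (minus strand) for TMEM192.
LAMP1: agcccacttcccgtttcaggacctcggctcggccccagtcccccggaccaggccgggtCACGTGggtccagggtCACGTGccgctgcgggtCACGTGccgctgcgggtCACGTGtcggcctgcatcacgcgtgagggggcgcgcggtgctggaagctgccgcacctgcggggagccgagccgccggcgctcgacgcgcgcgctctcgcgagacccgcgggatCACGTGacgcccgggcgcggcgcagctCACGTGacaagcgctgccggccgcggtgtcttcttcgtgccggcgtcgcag
CD164: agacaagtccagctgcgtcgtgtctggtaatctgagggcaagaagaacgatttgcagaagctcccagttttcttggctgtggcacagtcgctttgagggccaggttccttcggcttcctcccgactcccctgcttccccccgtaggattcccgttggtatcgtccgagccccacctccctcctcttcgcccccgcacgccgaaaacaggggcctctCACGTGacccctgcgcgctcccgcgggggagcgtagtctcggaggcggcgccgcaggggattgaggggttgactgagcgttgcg
TMEM192: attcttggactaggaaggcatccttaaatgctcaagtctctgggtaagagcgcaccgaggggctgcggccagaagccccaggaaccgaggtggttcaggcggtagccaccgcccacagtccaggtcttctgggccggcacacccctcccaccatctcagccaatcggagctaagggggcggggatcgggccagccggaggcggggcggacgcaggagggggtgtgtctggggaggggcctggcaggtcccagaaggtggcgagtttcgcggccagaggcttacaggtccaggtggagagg

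The LAMP1 window held CACGTG 6 times, with the first base of the motif 192, 176, 159, 142, 28 and 1 bases before the start. The last 2 of these were the longer palindrome TCACGTGA, which contains CACGTG. CD164 held a single TCACGTGA, 34 bases before the start. Of the 8 CD63 windows, 1 held CACGTG, 180 bases before its start, and the windows of TMEM192, SCARB2, LAPTM4A and CTNS held none. The windows of TMEM192 and SCARB2 lie well inside the GENCODE spans of these minus-strand genes, at other starts. No window covered their GENCODE starts (165208549 and 76234536), nor those of CD164 (109382812) and LAPTM4A (20052028). The CD63 window with the motif did not cover the GENCODE start of CD63 (55729707) either. Distances of the motifs are from the RefSeq start of each window. CACGTG reads the same on both strands and occurred in 7.26% of all 35116 promoter windows, TCACGTGA in 0.98%. A match is a description of these letters only.

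SCARB2 (ENSG00000138760, chromosome 4, 76158733 to 76234536, minus strand, GRCh38) encodes LIMP-2, the receptor that carries the enzyme glucocerebrosidase to the lysosome. Its counts were 83.0, 92.7 and 87.2 in the vehicle group, 108, 84.4 and 99.9 with Lys05, and 78.4, 88.4 and 84.6 with BAQ13 NPs. They were 97.0, 93.4 and 123 with BAQ12O and 108, 85.0 and 47.7 with BAQ12 NPs. The 3 BAQ12O libraries lay above the 3 vehicle libraries, but the difference did not pass the test (log2 fold change 0.24, 95% interval -0.21 to 0.69, adjusted p = 0.684 by limma). The lowest value of all was BAQ12 replicate 3. Without it, the log2 difference of BAQ12 NPs from vehicle turned from -0.20 to 0.13, and the SE of the other differences shrank from 0.21 to 0.13.

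CD63 is a tetraspanin of late endosomes, lysosomes and exosomes (ENSG00000135404, chromosome 12, 55725323 to 55729707, minus strand, GRCh38). The vehicle libraries read 524, 470.1 and 541, and the BAQ13 libraries 634, 723 and 722. Every BAQ13 library was above every other library. With Lys05 the counts were 575, 524 and 530.2, with BAQ12 NPs 612, 621 and 383, and with BAQ12O 613, 579.7 and 523. These 3 groups overlapped with the vehicle group. The log2 difference of BAQ12 NPs from vehicle was 0.04, and 0.27 without BAQ12 replicate 3 (adjusted p = 0.181 by limma). The log2 fold change with BAQ13 NPs was 0.44 (standard error 0.14, 95% interval 0.14 to 0.73), a fold of 1.35, and did not pass the test (adjusted p = 0.0775 by limma). It passed without BAQ12 replicate 3, in which CD63 differed by -37.9% from the mean of the other BAQ12 libraries. The adjusted p was then 0.000229 and the standard error 0.08. It also passed when only the 6 libraries of vehicle and BAQ13 NPs entered the fit (adjusted p = 0.00477).

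CD164 encodes endolyn, a sialomucin that cycles through endosomes and lysosomes (ENSG00000135535, chromosome 6, 109366514 to 109382812, minus strand, GRCh38). It was the member with the closest replicates in the BAQ13 group, at 115, 111 and 111, against 137, 128 and 139.5 in the vehicle group. The BAQ13 libraries were the lowest of all 15. The log2 difference was -0.26 (standard error 0.11, 95% interval -0.49 to -0.03, adjusted p = 0.19 by limma) and did not pass the test. In the other groups the counts were 120.3, 139.5 and 119 with Lys05, 147, 131 and 139 with BAQ12 NPs, and 141, 116 and 119.9 with BAQ12O. Those groups overlapped with vehicle.

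LAPTM4A and LAPTM4B encode related proteins that span the membrane of late endosomes and lysosomes several times. LAPTM4A (ENSG00000068697, chromosome 2, 20032650 to 20052028, minus strand, GRCh38) read 1087, 1149 and 1145 in the vehicle group and 893, 1013 and 1070.2 with BAQ13 NPs. These groups did not overlap, and the log2 difference of -0.19 (95% interval -0.47 to 0.09, adjusted p = 0.482 by limma) did not pass the test. Without BAQ12 replicate 3, which belongs to neither group, the interval was -0.33 to -0.05 at the same difference. The adjusted p was then 0.0656 by limma, still short of the threshold. LAPTM4A read 1134, 1135 and 1059 with Lys05, 1187, 1126 and 722 with BAQ12 NPs, and 1108, 1092 and 1187 with BAQ12O. The count of 722 in BAQ12 replicate 3 was the lowest of the 15. Without that library, the log2 difference of BAQ12 NPs from vehicle turned from -0.19 to 0.04. LAPTM4B (ENSG00000104341, chromosome 8, 97775057 to 97853013, plus strand, GRCh38) ranged from 269 to 334 over the 15 libraries, with group means between 282 ± 10.1 with BAQ12 NPs and 318 ± 23.3 with BAQ12O (SD, n = 3), and every treated group overlapped with the vehicle group (303 ± 17.9). Its 95% intervals against vehicle reached from -0.29 to 0.08 with BAQ12 NPs and from -0.12 to 0.25 with BAQ12O.

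TMEM192 encodes a membrane protein that is widely used as a handle to purify lysosomes (ENSG00000170088, chromosome 4, 165070608 to 165208549, minus strand, GRCh38). It read 124, 113 and 136 in the vehicle group and 197, 159 and 197 with BAQ13 NPs. All 3 BAQ13 libraries were above all vehicle and Lys05 libraries. With Lys05 it read 122, 146 and 125, with BAQ12 NPs 149, 148 and 178, and with BAQ12O 154, 140.1 and 141. BAQ12 NPs and BAQ12O also lay above vehicle in 3 of 3 libraries. TMEM192 rose with BAQ13 NPs, from 124 ± 11.5 to 184 ± 21.6 (SD, n = 3), by a log2 fold change of 0.57 (standard error 0.12, 95% interval 0.31 to 0.82, adjusted p = 0.00864 by limma), a fold of 1.48. Without vehicle replicate 2, the lowest of the vehicle libraries, the adjusted p was 0.0588 at a log2 fold change of 0.50. The difference with BAQ12 NPs did not pass the test (0.35, 95% interval 0.09 to 0.61, adjusted p = 0.258). Without BAQ12 replicate 3 it was 0.26 (95% interval 0.01 to 0.52, adjusted p = 0.508 by limma).

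CTNS encodes cystinosin, which exports cystine from the lysosome together with protons (ENSG00000040531, chromosome 17, 3636468 to 3661542, plus strand, GRCh38). It was the least deeply counted of the 9 genes, with 4 to 19 reads per library. The normalised counts were 8.30, 10.05 and 4.59 in the vehicle group, 5.32, 5.21 and 3.73 with Lys05, and 17.7, 8.20 and 15.1 with BAQ13 NPs. They were 6.42, 7.65 and 8.79 with BAQ12 NPs and 6.47, 7.63 and 6.89 with BAQ12O. The lowest BAQ13 library lay within the vehicle range. Against vehicle, the log2 fold change with BAQ13 NPs was 0.76 (standard error 0.34, 95% interval 0.03 to 1.48, adjusted p = 0.234 by limma). It was 0.47 without vehicle replicate 3, and from 0.55 without BAQ13 replicate 1 to 1.06 without BAQ13 replicate 2, and passed the test in none of these.

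Of the 9 genes, all passed the filter on low counts, and 2 passed the test with BAQ13 NPs against vehicle, LAMP2 and TMEM192, both upwards. Among all 10495 genes tested, 5.77% passed in this comparison. None of the 9 passed by limma with Lys05 (0.238% of all genes), BAQ12 NPs (0.981%) or BAQ12O (1.48%). At an unadjusted p under 0.05 there were 2 of the 9 with Lys05, where 4.98% of all genes had such a p, 2 with BAQ12 NPs (11.8%), 1 with BAQ12O (12.8%) and 6 with BAQ13 NPs (19.4%). All were higher than vehicle except CD164 with BAQ13 NPs. Tests with edgeR and DESeq2 on the recovered reads each gave adjusted calls of 0, 0, 0 and 2 in the same order. The median log2 fold change of the 9 genes was 0.36 with BAQ13 NPs, 0.16 with BAQ12O, 0.078 with Lys05 and 0.043 with BAQ12 NPs. Without BAQ12 replicate 3 the last was 0.13, above that of Lys05. Over all genes tested the medians lay between -0.0042 and 0.0018. All 4 treatments share the vehicle libraries, so their differences are not independent of each other. The cut-offs of the study (a fold of at least 2 and an unadjusted p of at most 0.05) were also applied, here to the limma fold changes and p-values. The study used t tests on another set of genes, so these shares are not those of the study. None of the 9 passed against vehicle in any group. Among all genes tested, 0.543% passed with Lys05, 1.03% with BAQ12 NPs, 2.16% with BAQ13 NPs and 0.953% with BAQ12O.

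Counted by libraries that did not overlap with vehicle, 5 of the 9 genes were separate with BAQ13 NPs (LAMP2, CD63 and TMEM192 above, CD164 and LAPTM4A below), where 28.9% of all genes were separate. With BAQ12O there were 3 (LAMP2, SCARB2 and TMEM192, all above) against 25.8% of all genes. Lys05 gave 2 (LAMP1 and LAMP2, above) against 15.6%, and BAQ12 NPs gave 2 (LAMP2 and TMEM192, above) against 15.4%. LAMP2 was the gene that was separate in all 4. The 4 comparisons share the vehicle libraries, and the share of all genes separate in all 4 was not computed.

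**Figure D2:**
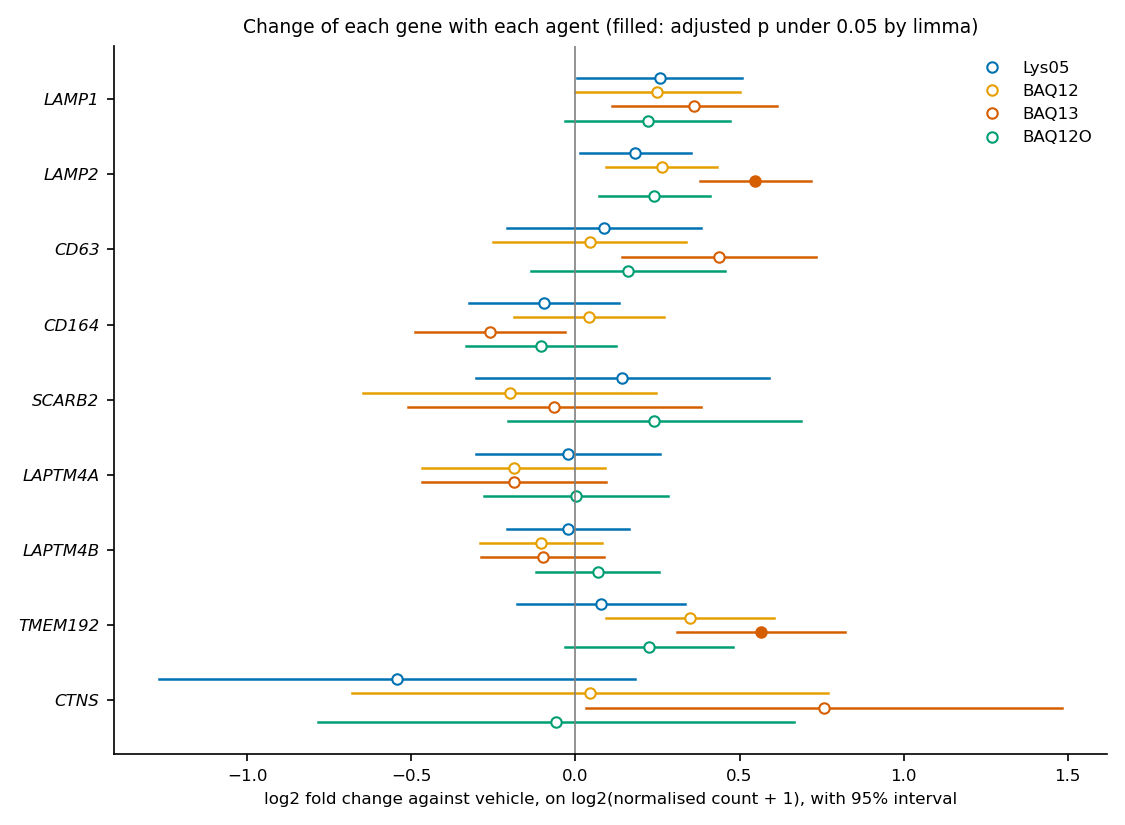
Log2 fold change of each gene with each agent against vehicle on the log2(normalised count + 1) scale (horizontal axis), with 95% intervals and filled points for an adjusted p under 0.05. The 2 filled points are LAMP2 (0.55) and TMEM192 (0.57) with BAQ13, and the widest intervals belong to CTNS.

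Differences between the treatments were then tested directly, in 6 pairs at the same dose and time, with p-values adjusted over all genes in each pair. BAQ13 NPs differed from Lys05 in 2 of the 9 genes, where 2.66% of all genes passed. LAMP2 was higher with BAQ13 NPs by 0.37 on the log2 scale (95% interval 0.20 to 0.53, adjusted p = 0.0165 by limma) and TMEM192 by 0.49 (95% interval 0.23 to 0.74, adjusted p = 0.0391). Both calls were lost when single libraries were left out: LAMP2 had an adjusted p of 0.0566 to 0.1 without Lys05 replicate 1 or 3 or BAQ13 replicate 2 or 3, and TMEM192 one of 0.0518 to 0.168 without any of 8 libraries (vehicle replicate 1, Lys05 replicates 1 and 3, BAQ13 replicates 1 and 3, and each BAQ12O library). CTNS had the largest difference of the 9, 1.30 (95% interval 0.57 to 2.02, adjusted p = 0.0538), from means of 4.75 ± 0.886 with Lys05 and 13.7 ± 4.92 with BAQ13 NPs (SD, n = 3). It met the fold of 2 and unadjusted p of 0.05 that 1.29% of all genes met, and passed the adjusted threshold with edgeR (adjusted p = 0.0326) and with a pseudocount of 5 (adjusted p = 0.0471), on 4 to 19 reads a library. CD63 was 0.35 higher (95% interval 0.06 to 0.64, adjusted p = 0.245), and passed when only the 6 libraries of these groups entered the fit (adjusted p = 0.0277). Of the 9 genes, 5 had no overlap between BAQ13 NPs and Lys05 (LAMP2, CD63, TMEM192 and CTNS higher, CD164 lower), against 23.8% of all genes.

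Between BAQ13 NPs and BAQ12 NPs none of the 9 genes passed by limma (0.562% of all genes did), with 3 at an unadjusted p under 0.05 (8.27% of all genes) and 0 adjusted calls by edgeR and DESeq2. LAMP2 was 0.28 higher with BAQ13 NPs (95% interval 0.12 to 0.45, adjusted p = 0.181), CD63 0.39 higher (95% interval 0.10 to 0.69, adjusted p = 0.381) and the log2 difference of CD164 was -0.30 (95% interval -0.53 to -0.07, adjusted p = 0.391). Without BAQ12 replicate 3 the difference in CD63 was 0.17 (95% interval -0.01 to 0.34, adjusted p = 0.367), and those in LAMP2 and CD164 were 0.26 and -0.30. LAPTM4A moved from 0.0016 to -0.22 (95% interval -0.38 to -0.07, adjusted p = 0.108). SCARB2 turned from 0.14 to -0.19, and TMEM192 went from 0.22 to 0.30 (95% interval 0.05 to 0.56, adjusted p = 0.202). The intervals leave room for differences of these sizes, and no likeness of the agents follows from the missed threshold. Between BAQ12O and BAQ13 NPs none passed (1.39% of all genes did), with 3 at an unadjusted p under 0.05 (11.2% of all genes) and 0 adjusted calls by edgeR and DESeq2. The log2 difference of BAQ12O from BAQ13 NPs was -0.31 for LAMP2 (95% interval -0.48 to -0.14, adjusted p = 0.0791 by limma) and -0.34 for TMEM192 (95% interval -0.60 to -0.08, adjusted p = 0.254). The largest was that of CTNS, -0.82 (95% interval -1.54 to -0.09, adjusted p = 0.369), on 5 to 8 and 9 to 19 reads a library. No overlap between these groups was seen for 7 of the 9 genes, against 18.7% of all genes. LAMP2, CD63, TMEM192 and CTNS were lower with BAQ12O, and SCARB2, CD164 and LAPTM4A higher.

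The other 3 pairs gave no call by limma, edgeR or DESeq2 among the 9 genes. The shares of all genes that passed by limma were 0.162% for BAQ12 NPs against Lys05, 0.248% for BAQ12O against Lys05 and 0.229% for BAQ12O against BAQ12 NPs. At an unadjusted p under 0.05 there were 1, 0 and 0 of the 9, against 7.17%, 7.36% and 8.38% of all genes, the 1 being TMEM192, higher with BAQ12 NPs than with Lys05 by 0.27 (95% interval 0.02 to 0.53). Without BAQ12 replicate 3 the difference was 0.18 (95% interval -0.07 to 0.44), and CD63 was the gene with an unadjusted p under 0.05, at a difference of 0.18 (95% interval 0.01 to 0.36, adjusted p = 0.921). The LAMP2 differences in these pairs were small, at 0.08 (95% interval -0.09 to 0.25), 0.06 (-0.11 to 0.23) and -0.02 (-0.19 to 0.15). For BAQ12 NPs against Lys05, SCARB2 went from -0.34 to -0.01 without BAQ12 replicate 3, and LAPTM4A from -0.17 to 0.06. In BAQ12O against BAQ12 NPs, also without that library, SCARB2 went from 0.44 to 0.11 and CD63 from 0.12 to -0.11. LAPTM4A there went from 0.19 to -0.04.

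**Figure D3:**
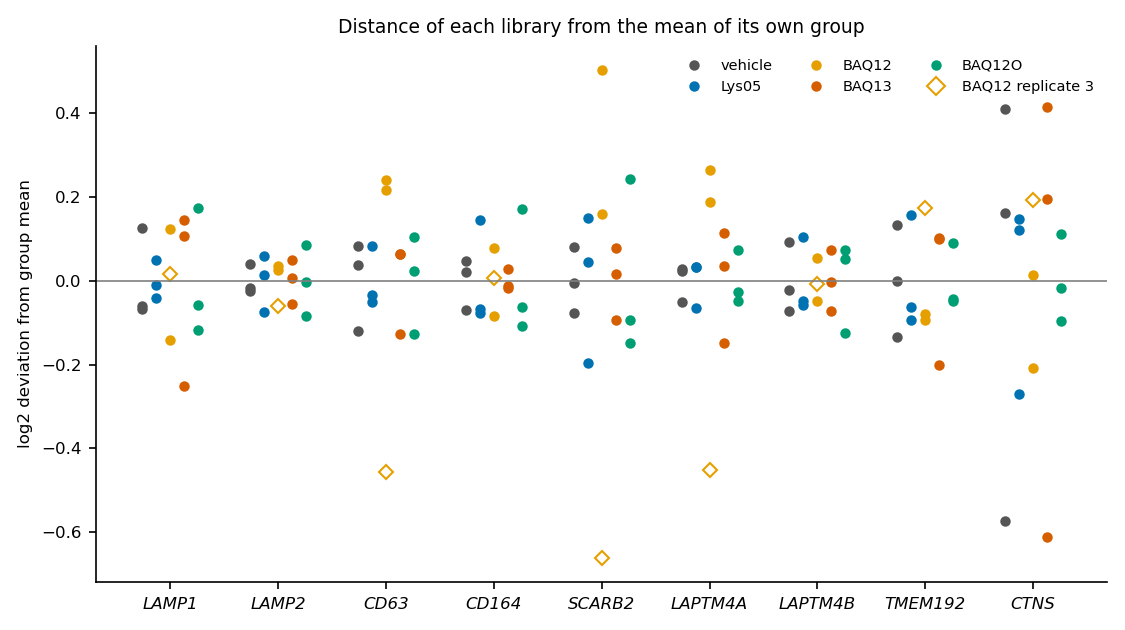
Deviation of each library from the mean of its own group (vertical axis, log2 scale) for the 9 genes, coloured by group, with replicate 3 of BAQ12 as an open diamond. The diamond is far below 0 in CD63, SCARB2 and LAPTM4A and near 0 in LAMP1, CD164 and LAPTM4B.

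The departure of BAQ12 replicate 3 was uneven over the 9 genes. Relative to the mean of the other two BAQ12 libraries, it differed by -50.6% in SCARB2, -37.9% in CD63 and -37.6% in LAPTM4A, and each of these values was outside the range of the other 14 libraries. The differences were small for LAMP1 (1.38%), CD164 (0.434%) and LAPTM4B (-0.812%), and -5.96% for LAMP2. TMEM192 differed by 19.9% and CTNS by 25.0%. Without this library, the fit called 4 of the 9 genes with BAQ13 NPs against vehicle (LAMP1, LAMP2, CD63 and TMEM192, all higher), where 13.7% of all genes passed. It called 4 with BAQ13 NPs against Lys05 (LAMP2, CD63, TMEM192 and CTNS, all higher; 7.76% of all genes) and 2 with BAQ12O against BAQ13 NPs (LAMP2 and CD63, both lower with BAQ12O; 3.69%). None was called with BAQ12 NPs against vehicle by limma (1.31% of all genes), where LAMP2, CD63 and TMEM192 had an unadjusted p under 0.05. The share of all genes with such a p is not given for that fit, and was 11.8% with all 15 libraries. The other tools were not run without that library. The part of that library's low depth and high mitochondrial share in these values was not tested.

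Other proteins of the same membrane were described from lists of genes compiled by function. Of 39 further lysosomal transporters, channels and other membrane proteins, 34 passed the filter. With BAQ13 NPs 3 of the 34 rose, none fell and 31 did not pass, where 5.77% of all genes passed, with a list median of 0.195 on the log2 scale against -0.0042 over all genes. By limma, 12 of the 34 (11 higher) had an unadjusted p under 0.05 with BAQ13 NPs, against 19.4% of all genes. There were 7 with BAQ12 NPs (6 higher, 11.8% of all genes), 4 with BAQ12O (12.8%) and 2 with Lys05 (4.98%). SLC17A5, which exports sialic acid from the lysosome, was called in every group but Lys05. Its mean normalised count was 69.96 ± 6.10 in the vehicle group, 141 ± 18.2 with BAQ12 NPs, 179 ± 5.84 with BAQ13 NPs and 128 ± 11.3 with BAQ12O (SD, n = 3). The log2 fold changes were 1.00, 1.35 and 0.86, with adjusted p-values of 8.56e-05, 8.98e-07 and 0.000815 by limma, and they were larger than that of any of the 9 genes in the same comparison. With BAQ13 NPs, TMEM55B, a phosphoinositide phosphatase family member of the lysosomal membrane, went from 50.1 ± 11.7 to 107 ± 29.2 (log2 fold change 1.07, adjusted p = 0.00822). CLN3, the membrane protein affected in juvenile Batten disease, went from 24.5 ± 6.79 to 48.8 ± 10.4 (0.98, adjusted p = 0.0285). Leaving out 1 library or another setting ended the call of CLN3 in 4 of 25 alternatives and of TMEM55B in 2 of 25, and that of SLC17A5 in 0 of 25. The count of 3 was 2 under a replicate block and 5 without BAQ12 replicate 3, when NPC1, which moves cholesterol out of the lysosome (0.78, adjusted p = 0.00551), and MCOLN3, an endolysosomal cation channel (1.47, adjusted p = 0.0305), also passed and 13.7% of all genes did. The medians of this list with the other agents were 0.078 with Lys05, 0.092 with BAQ12 NPs (0.038 without its replicate 3) and 0.19 with BAQ12O.

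**Figure D4:**
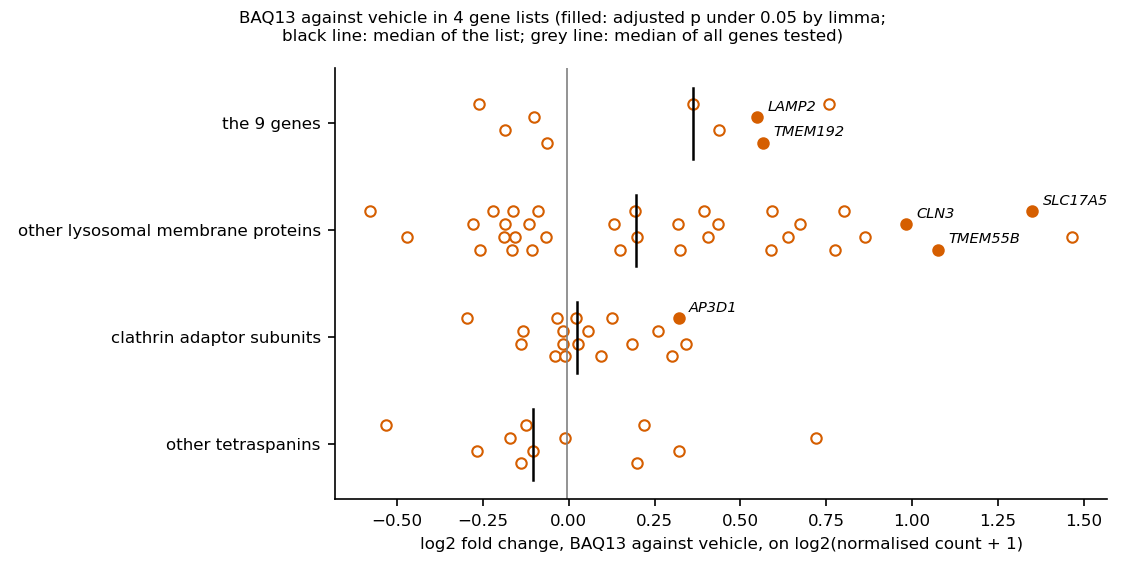
Log2 fold change with BAQ13 against vehicle (horizontal axis) for the 9 genes and 3 lists of other genes, 1 point per gene tested, filled for an adjusted p under 0.05, with black lines at list medians and a grey line at the median of all genes. The medians are 0.36 for the 9 genes, 0.195 for other lysosomal membrane proteins, 0.024 for clathrin adaptor subunits and -0.11 for other tetraspanins.

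CD63 belongs to a large family whose members organise other membrane proteins into patches. Of 32 other tetraspanins listed, 11 passed the filter and none passed the test by limma, edgeR or DESeq2 in the 4 comparisons with vehicle, where limma gave 1, 0, 1 and 0 genes at an unadjusted p under 0.05 with Lys05, BAQ12 NPs, BAQ13 NPs and BAQ12O. Their median with BAQ13 NPs was -0.11. The 1 with BAQ13 NPs was CD82, with a log2 change of 0.72 (standard error 0.29, adjusted p = 0.17), which passed without BAQ12 replicate 3 (adjusted p = 0.0478). Of the 20 subunits of the clathrin adaptor complexes, which sort membrane proteins such as the LAMPs by their cytoplasmic tails, 18 passed the filter. Of these, 1 was called with BAQ13 NPs, a share near the 5.77% of all genes. None was called with Lys05, BAQ12 NPs or BAQ12O by limma, edgeR or DESeq2, with 0, 1 and 2 at an unadjusted p under 0.05 by limma. It was AP3D1, the delta subunit of the AP-3 complex, at 968 ± 25.4 in the vehicle group and 1210 ± 41.9 with BAQ13 NPs (log2 fold change 0.32, adjusted p = 0.0212), a call that held in 19 of 25 alternatives. Without BAQ12 replicate 3 it was also called with BAQ12O (0.23, adjusted p = 0.029). Of 6 relatives of the LAMP, SCARB and LAPTM families, only SCARB1 passed the filter, with a log2 change of 0.31 with BAQ13 NPs that did not pass the test.

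The genes closest to LAMP2 and TMEM192 in pattern were found from the 5 group means on the log2 scale, each centred on the gene's own mean, by the root mean square difference. For LAMP2 these were BLOC1S6, a subunit of a complex in the making of lysosome-related organelles, at a difference of 0.022, and AC093642.5 at 0.024. BLOC1S6 had log2 differences from vehicle of 0.20 with Lys05, 0.24 with BAQ12 NPs, 0.50 with BAQ13 NPs and 0.21 with BAQ12O. For TMEM192 they were SNX30, a sorting nexin, at 0.021 and the zinc finger gene ZNF48 at 0.028. These 4 genes were picked for their likeness among 10495, over 5 means, and no test was made.

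Reads of overlapping genes may enter several of these values, which was not tested. SCARB2, CD63, CD164, LAPTM4B, TMEM192 and CTNS each overlap an annotated gene on the opposite strand, and whether the counting used the strand is not given in the sources used here, so that reads of the partners cannot be told apart. The partner of TMEM192, KLHL2, was given 1 to 7 reads per library and that of SCARB2, FAM47E, 0 or 1. The partners of the other 4 genes were not found by name among the genes listed in the libraries. LAPTM4B also has 2 processed copies by symbol (LAPTM4BP1 and LAPTM4BP2). They were not found by name among the listed genes either, and their share of its reads is uncertain.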

How the data were processed

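RNA from MIA PaCa-2 cells was sequenced in 15 samples, 5 groups of 3, grouped by sample title. The authors deposited, for each gene, 1 normalised read count (a signal: reads divided by 1 size factor per library). STAR, HTSeq and DESeq2 and the builds GRCh38 and hg38 stand in the submitters' processing notes without versions or roles. The labels name a 3′ mRNA kit and the methods of the study a stranded paired-end kit, and which was used is not settled. In each library 100% of values above 0 were whole multiples of the smallest one (tolerance 0.01), so whole reads were recovered. All 92 spike-ins listed had 0 reads and were left out.

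Genes were kept by filterByExpr on recovered reads (minimum count 10, minimum total 15), leaving 10495. The main test was limma (lmFit, eBayes with trend) on log2(normalised count + 1) over all 15 libraries, and fold changes are on that scale, which understates low genes. Called means a Benjamini-Hochberg adjusted p under 0.05 over all genes tested. The alternatives were pseudocounts of 0.1 and 5, no filter, at least 10 reads in every library, TMM factors, edgeR (quasi-likelihood) and DESeq2 on recovered reads, only the groups compared, the replicate number as a block, and leaving out each library. Leaving out both replicate 3 of BAQ12 and replicate 3 of BAQ12O was chosen after seeing the data.

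The 9 genes and the lists were chosen with earlier results of these data known. Named were all 9 genes, list genes called against vehicle (at most 4 per list and comparison, by size), and the 2 nearest genes of each called member. CD82, NPC1, MCOLN3, SCARB1 and the overlapping genes were named beyond this rule, after their values were seen. limma, edgeR and DESeq2 were tested on simulated data. Gene positions come from GENCODE 29, promoters from RefSeq. Software: limma 3.58.1, DESeq2 1.42.0 and edgeR 4.0.16 in R 4.3.3, and pandas 2.3.3, numpy 2.4.6 and matplotlib 3.10.9 in Python 3.11.15.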

Additional observations from a re-analysis of the deposited data

How the results depend on the processing

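With BAQ13 NPs against vehicle, 3 genes were called when only the groups compared entered the fit. The LAMP2 increase with BAQ13 NPs over vehicle was called in 25 of 25 alternatives (log2 fold change 0.52 to 0.58), and that of TMEM192 in 24 of 25. The number of the 9 genes called with BAQ13 NPs against vehicle, 2, ranged from 1 (without vehicle replicate 2) to 4 (without BAQ12 replicate 3) over single libraries left out, and was 4 without replicate 3 of both BAQ12 and BAQ12O. Against Lys05 it was 2, became 1 with no filter on low values and 3 with a pseudocount of 5, with edgeR and with only the groups compared, ranged from 0 to 4 over single libraries left out (4 without BAQ12 replicate 3, 0 without Lys05 replicate 1 or 3 or BAQ13 replicate 3), and was 4 without both replicates 3. For BAQ12O against BAQ13 NPs it was 0, ranged from 0 to 2 over single libraries left out (2 without BAQ12 replicate 3), and was 1 without both replicates 3. The counts of 0 for the other 7 comparisons were 0 in each alternative by limma, edgeR and DESeq2. Beyond the libraries left out, the cause of these shifts was not tested.

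A fit with a replicate block gave 2 of the 9 genes with BAQ13 NPs against vehicle and 1 against Lys05. The samples share only a number: of 30 same-numbered pairs, deviations from group means correlated at -0.492 to 0.2, with 4 over 0.1.

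Over all genes, calls against vehicle were 25 with Lys05 (19 to 115), 103 with BAQ12 NPs (31 to 145), 606 with BAQ13 NPs (320 to 1500) and 155 with BAQ12O (75 to 871). Between treatments they were 17 for BAQ12 NPs and Lys05 (0 to 30), 279 for BAQ13 NPs and Lys05 (154 to 843), 26 for BAQ12O and Lys05 (20 to 223), 59 for BAQ13 NPs and BAQ12 NPs (9 to 358), 24 for BAQ12O and BAQ12 NPs (8 to 54) and 146 for BAQ12O and BAQ13 NPs (72 to 387). Of 2240 values of a gene, comparison and alternative, 64 changed sign, none of them of a called gene. CTNS had no value with at least 10 reads in every library. CTNS rests on 4 to 19 reads a library.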
